A study of Mus musculus with 2 samples.

Results

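Immunoglobulin genes are built from separate pieces, and the 47 described here are the V, D, J and constant genes of the antibody loci that had 20 or more counts summed over both libraries. They were chosen by gene type in the GENCODE M21 annotation (IG_V_gene, IG_D_gene, IG_J_gene or IG_C_gene), from 240 such rows of a table of 39017 genes, and selected on the sum of the same counts that are compared below. Of those 240 rows, 155 had 0 counts in both libraries and 38 had 1 to 19. The study sequenced ribosome-depleted total RNA of LSK cells (lineage-negative, Sca-1+, c-Kit+) from mouse bone marrow, a fraction enriched in haematopoietic stem and early progenitor cells. The first library came from 6 pooled miR-146a-/- mice, and the other from 12 pooled wild-type (WT) animals. The labels give C57BL/6J as the strain of both, and all animals were 10 to 14 weeks old. Each genotype had 1 library, so nothing below has a replicate check, no test was made, and each statement compares these libraries.

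An antibody is made of heavy chains (locus Igh) and light chains (loci Igk and Igl). In developing B cells the RAG recombinase joins a V segment to a J segment, with a D segment between them in the heavy chain. Splicing then attaches the joined piece to a constant gene. In early progenitors the unjoined heavy chain locus is already transcribed: sterile transcripts start beside the D segment nearest the J cluster and at the intronic enhancer, and run into the constant gene Ighm. Counts of Ighm or of heavy chain J segments therefore need not come from a joined gene. V segments are transcribed weakly before joining and strongly once joined, and all descendants of a cell with a joined gene carry the same V. MiR-146a is a microRNA that restrains NF-kB signalling, and the mutant mice lack it.

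The sequences below are those of the V segments that led in 1 library, because the results turn on which segment carried the counts. Each is the last 200 bases of the coding sequence in the M21 transcripts (GRCm38, the mm10 build), written 5′ to 3′. Capitals mark the last in-frame cysteine codon, which stands just before the third antigen-binding loop. Igkv10-96 (chr6:68631963-68632442, minus strand) and Ighv1-76 (chr12:115847881-115848331, minus strand) led the WT library. Igkv1-135 (chr6:67609713-67610508, plus strand) and Ighv1-55 (chr12:115208095-115208591, minus strand) led the miR-146a-/- library.
Igkv1-135: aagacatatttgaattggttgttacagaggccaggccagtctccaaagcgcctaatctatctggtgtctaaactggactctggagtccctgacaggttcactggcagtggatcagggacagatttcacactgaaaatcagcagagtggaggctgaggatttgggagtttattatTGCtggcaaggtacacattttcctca
Ighv1-55: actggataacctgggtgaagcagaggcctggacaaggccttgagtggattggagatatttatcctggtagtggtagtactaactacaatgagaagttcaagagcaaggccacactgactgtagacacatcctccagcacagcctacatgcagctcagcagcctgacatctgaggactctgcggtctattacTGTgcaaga
Igkv10-96: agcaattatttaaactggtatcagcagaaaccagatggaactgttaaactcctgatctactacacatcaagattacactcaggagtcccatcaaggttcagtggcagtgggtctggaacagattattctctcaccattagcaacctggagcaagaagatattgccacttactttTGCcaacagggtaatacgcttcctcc
Ighv1-76: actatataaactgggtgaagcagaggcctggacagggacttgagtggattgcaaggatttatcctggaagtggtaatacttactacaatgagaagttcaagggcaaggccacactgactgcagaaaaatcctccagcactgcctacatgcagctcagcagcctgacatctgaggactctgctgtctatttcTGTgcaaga
Over 351 aligned coding bases Ighv1-76 and Ighv1-55, both of the large Ighv1 family, were 87.2% identical.

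The short J segments and the D segment are shown because reads over them bear on whether a locus is only transcribed or joined. Capitals mark the motif TGGGGNNNNGGN in heavy chain J segments and TTCGGNNNNGGN in kappa J segments, searched on the coding strand. It encodes the tryptophan or phenylalanine and the glycines that lie near the end of the variable domain. These motifs, or TTTGGNNNNGGN, occurred in 12 of the 14 annotated J segments (85.7%).
Ighj1: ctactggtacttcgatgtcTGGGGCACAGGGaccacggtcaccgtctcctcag
Ighj2: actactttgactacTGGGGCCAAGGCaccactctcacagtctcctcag
Ighj3: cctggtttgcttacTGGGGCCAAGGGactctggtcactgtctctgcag
Ighj4: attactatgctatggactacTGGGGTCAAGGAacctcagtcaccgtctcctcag
Igkj1: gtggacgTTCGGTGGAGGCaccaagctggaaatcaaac
Igkj2: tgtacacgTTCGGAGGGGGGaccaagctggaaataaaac
Igkj4: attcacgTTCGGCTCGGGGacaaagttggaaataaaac
Ighd4-1: ctaactgggac
Ighd4-1 lies 694 bases upstream of Ighj1 and is the D segment nearest to it.

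Total counts were 22231389 in the miR-146a-/- library and 35069136 in the WT library, of which the members held 5354 and 21186. Protein-coding genes held 51.5% of miR-146a-/- counts and 81.4% of WT counts, and Gm42418, a gene that overlaps ribosomal RNA sequence, had 6045075 counts in miR-146a-/- and 747309 in WT. Counts were scaled by the trimmed mean of M values (TMM) and are given as normalised counts per 1000000 (CPM), where 1 count is 0.0598 CPM in miR-146a-/- and 0.0215 CPM in WT. Ratios are log2 of miR-146a-/- over WT. A gene is called higher or lower in miR-146a-/- when its whole 95% counting interval lies beyond 1.5-fold. Over all 13880 measured genes the median log2 ratio was -0.01, and -0.83 when scaled by total counts. Xist, transcribed from the inactive X chromosome, had 49105 counts in miR-146a-/- and 10988 in WT, a log2 ratio of 3.64. The labels used here do not give the sex of the pooled mice, so a difference in sex or in the number of pooled mice cannot be told apart from genotype. Mir146, the targeted gene, had 0 counts in both libraries and so checks neither label. In bulk RNA, fewer cells of a type and less RNA per cell cannot be told apart either.

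The markers of the sort were present. Kit, which encodes c-Kit, was at 727 CPM in miR-146a-/- and 558 CPM in WT, and Ly6a, which encodes Sca-1, at 74.6 and 66.8 CPM. Of the genes that define B cells, Ms4a1 (CD20) had 0 counts in miR-146a-/- and 1 in WT, and Pax5, the factor that commits cells to the B lineage, had 1 and 0.

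Across the 47 members, more were lower than higher in the miR-146a-/- library. By the counting rule 6 were higher (12.8%), 26 were lower (55.3%) and 15 were neither. Over all measured genes 5.35% were called higher and 1.53% lower. Scaled by total counts, 5 members were higher and 31 lower, where 1.01% and 51.0% of all measured genes were. With no filter on counts 12 immunoglobulin rows were higher, and among members with at most 33% of their words of 50 bases shared with other genes 3 were higher. The median log2 ratio of the members was -1.93, and -1.64 with the 21 members at 0 counts in a library set at a floor of 3 counts in that library. The choice of members bears on this count: 34 had 20 or more counts in WT only, 5 in miR-146a-/- only and 8 in both. Passing through 1 library only favours members that differ, so the count of calls only describes the list. It does not force a difference, since the WT library is deeper. Igkj1 (17 and 48 counts, -0.02) and Igkv5-39 (18 and 46 counts, 0.12) passed through WT only and were neither higher nor lower. Among the 8 members with 20 counts in both libraries, 1 was higher (Ighv1-55), 2 were lower (Igkc and Ighv1-77) and 5 were neither. At the edge of the rule, Igkv14-130 (25 and 0 counts in miR-146a-/- and WT) and Iglv2 (0 and 25) were just inside, and Ighv3-1 (0 and 17) and Ighv1-80 (2 and 13) just outside.

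**Figure D1:**
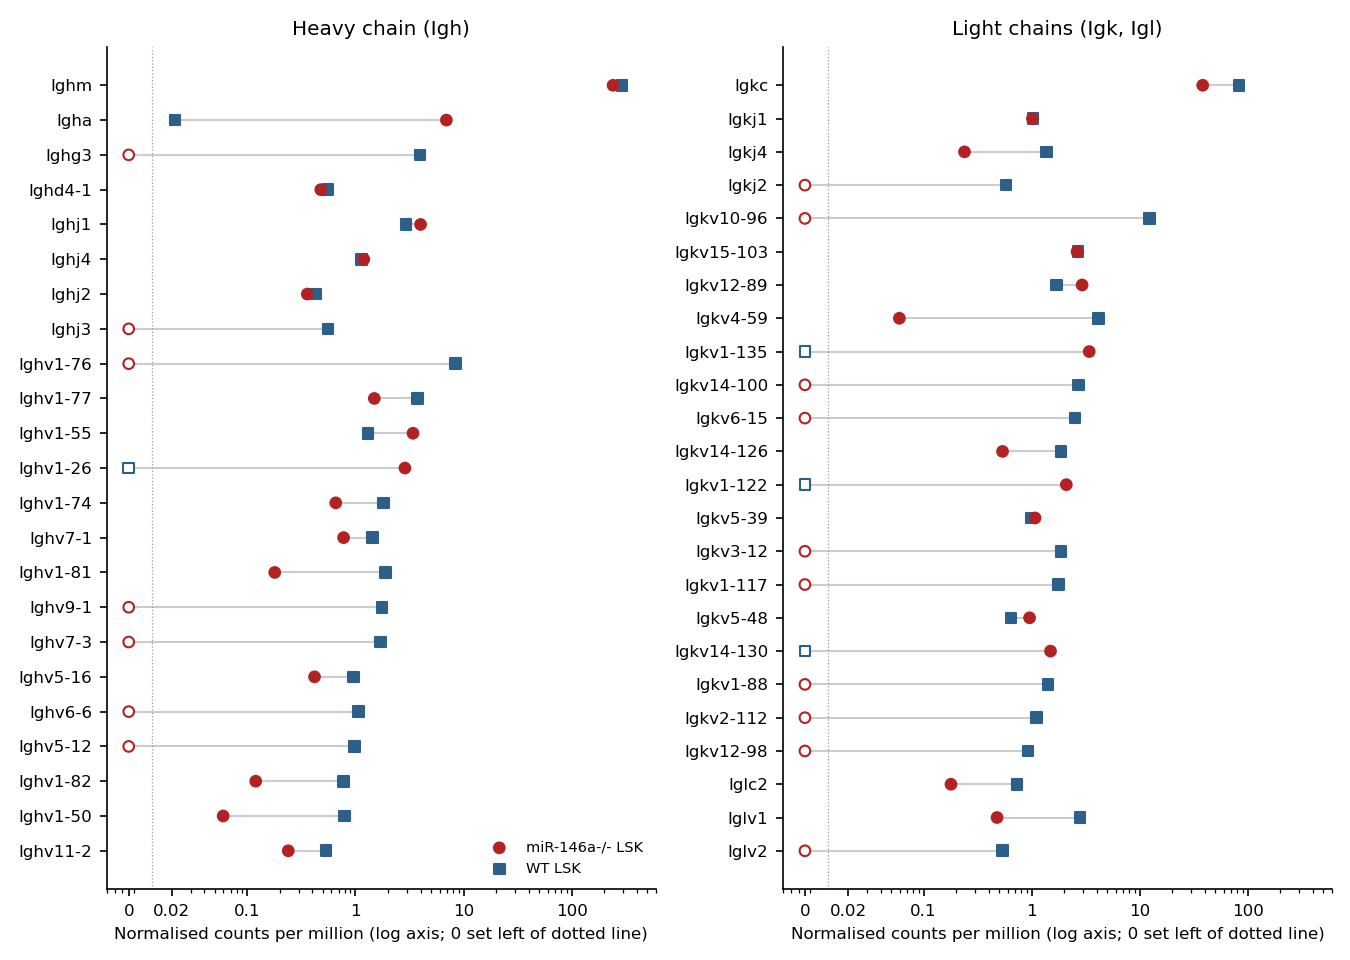
Normalised counts (CPM) of the 47 members in the miR-146a-/- library (red circles) and the WT library (blue squares), 1 library each, on a log axis with 0 drawn as open symbols left of the dotted line. Ighm, Ighj1 and Ighj4 lie close together in both libraries, while Igha, Ighg3 and many V segments lie near or at 0 in 1 library.

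By locus, the heavy chain was closest between the libraries and lambda farthest apart. Summed Igh counts were 4429 in miR-146a-/- (265 CPM) and 15291 in WT (328 CPM), a log2 ratio of -0.31 (95% interval -0.36 to -0.26), not called. Igk sums were 914 in miR-146a-/- (54.7 CPM) and 5705 in WT (122 CPM), lower by a log2 ratio of -1.16 (-1.26 to -1.06). Igl sums were 11 in miR-146a-/- (0.658 CPM) and 190 in WT (4.08 CPM), lower by -2.60 (-3.66 to -1.76). Within a library, Igh held 82.7% of member counts in miR-146a-/- (Clopper-Pearson interval 81.7 to 83.7%) and 72.2% in WT (71.6 to 72.8%). These shares do not depend on scaling between libraries. Scaled by total counts, the Igh ratio was -1.13 and was called lower, while the directions of the 3 loci did not change.

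By class, V segments differed most and heavy chain J segments least. The 34 V members summed to 433 counts in miR-146a-/- (25.9 CPM) and 3138 in WT (67.3 CPM), lower by a log2 ratio of -1.38 (-1.53 to -1.23). Leaving out Igkv10-96 and Ighv1-76, chosen after their values were seen, the ratio was -0.85 (-1.0 to -0.70), still called lower. The 5 constant genes summed to 4799 counts in miR-146a-/- and 17647 in WT, at -0.40 (-0.45 to -0.35), not called. The 7 J members summed to 114 and 375 counts, at -0.24 (-0.55 to 0.07), not called. V segments made 8.09% of member counts in miR-146a-/- (7.37 to 8.85%) and 14.8% in WT (14.3 to 15.3%).

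**Figure D2:**
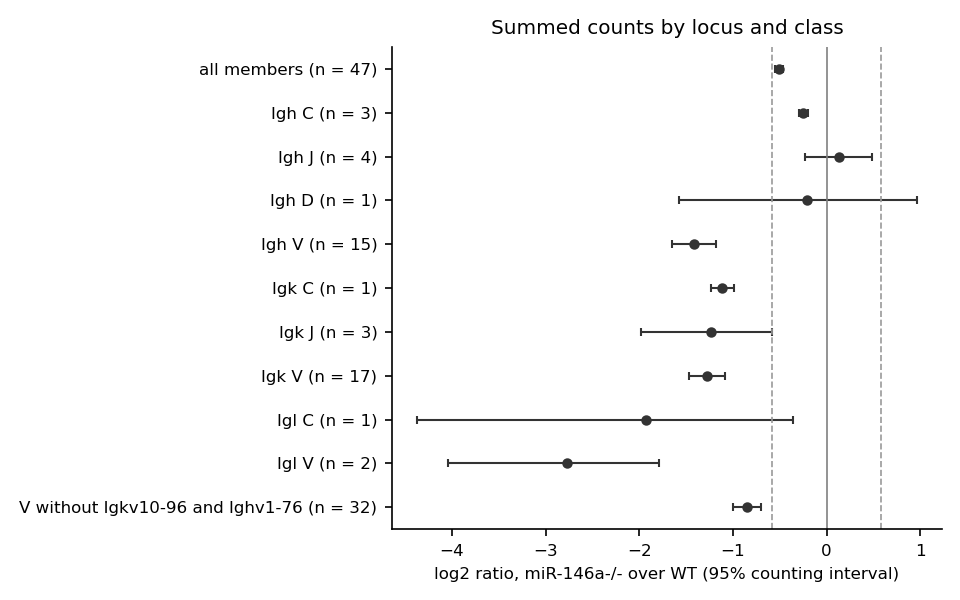
Log2 ratio of summed counts, miR-146a-/- over WT, by locus and class, with 95% counting intervals as bars, dashed lines at 1.5-fold and the number of members in brackets. Heavy chain constant, J and D sums lie near 0, and the sums of Igh V, Igk V, Igk C and Igl V lie wholly below the lower dashed line.

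Ighm, the constant gene of IgM heavy chains, carried most counts in both libraries. It had 4041 counts in miR-146a-/- (242 CPM) and 13572 in WT (291 CPM), a log2 ratio of -0.27 (-0.32 to -0.22), not called. That was 75.5% of member counts in miR-146a-/- (74.3 to 76.6%) and 64.1% in WT (63.4 to 64.7%). Ighm lies at chr12:113418558-113422730 on the minus strand, and none of its words of 50 bases occurred in a transcript of another gene. By contrast Igkc, the kappa constant gene (chr6:70726435-70726966, plus strand), had 639 counts in miR-146a-/- (38.2 CPM) and 3855 in WT (82.7 CPM) and was lower at -1.11 (-1.24 to -0.99). Per kilobase of exon, Ighm stood at 128 CPM in miR-146a-/- and 154 CPM in WT, and Igkc at 71.8 and 155 CPM. The level per length of Igkc thus matched that of Ighm in WT and lay below it in miR-146a-/-. In M21 the gene Gm30211 overlaps Igkc and the kappa J segments on the same strand, so their reads could be shared with it.

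The switched heavy chain constant genes were of different classes in the libraries. Igha, the constant gene of IgA (chr12:113254830-113260236, minus strand), had 116 counts in miR-146a-/- (6.94 CPM) and 1 count in WT (0.0215 CPM), higher at 7.54 (5.83 to 13.65). Ighg3, the constant gene of IgG3 (chr12:113356224-113361232, minus strand), had 0 counts in miR-146a-/- and 185 in WT (3.97 CPM), and was at least 22.1-fold lower against a floor of 3 counts. The direction was opposite for these genes, and each had at most 1 count in 1 of the libraries. Folds against the floor take the count of the other library as exact. The bound of the counting interval, which does not, was 17.8-fold for Ighg3 and lay at 75.5 to 81.1% of the floor fold over the 21 members with a 0. Igha made 2.79% of heavy constant counts in miR-146a-/- (2.31 to 3.34%) and 0.00727% in WT (0.000184 to 0.0405%). Ighg3 made 0% in miR-146a-/- (up to 0.0887%) and 1.34% in WT (1.16 to 1.55%). Of rows below 20 counts, Ighe had 3 counts in miR-146a-/- and 5 in WT, and Ighg2b had 1 and 0. Iglc2, a lambda constant gene, had 3 counts in miR-146a-/- and 34 in WT, at -1.93 (-4.37 to -0.35), not called. Kappa made 99.5% of the counts of Igkc and Iglc2 together in miR-146a-/- (98.6 to 99.9%) and 99.1% in WT (98.8 to 99.4%), with overlapping intervals.

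Heavy chain J and D counts lay closer between the libraries than heavy chain V counts. Ighj1 had 67 counts in miR-146a-/- (4.01 CPM) and 137 in WT (2.94 CPM), at 0.44 (0.00 to 0.88). Ighj4 had 20 and 53 counts, at 0.07, Ighj2 had 6 and 20, at -0.25, and none of these was called. Ighj3 had 0 counts in miR-146a-/- and 26 in WT and was called lower, at least 3.11-fold against the floor, with an interval bound of 2.35-fold. Ighj1 made 72.0% of heavy chain J counts in miR-146a-/- (61.8 to 80.9%) and 58.1% in WT (51.5 to 64.4%), with overlapping intervals. Ighd4-1, printed above and only 11 bases long, had 8 counts in miR-146a-/- and 26 in WT, at -0.21 (-1.57 to 0.96). It was the only D segment of 18 rows to reach 20 counts. The J sum of the heavy chain was 93 counts in miR-146a-/- and 236 in WT, at 0.14 (-0.23 to 0.49), while the V sum of the same locus was lower at -1.41 (-1.65 to -1.18). The J and V intervals of the heavy chain did not overlap.

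Kappa J segments were spread differently. Igkj1 had 17 counts in miR-146a-/- and 48 in WT, at -0.02 (-0.91 to 0.81), not called. Igkj4 had 4 and 64 counts and was lower at -2.45 (-4.44 to -1.10). Igkj2 had 0 counts in miR-146a-/- and 27 in WT and was lower by at least 3.23-fold against the floor. Kappa J counts summed to 21 in miR-146a-/- and 139 in WT, at -1.24 (-1.99 to -0.58). That sum was close to the ratios of Igk V (-1.27) and Igkc (-1.11), so the 3 classes of the kappa locus were at similar ratios, unlike those of the heavy chain. V counts made 28.4% of V and constant counts of Igk in miR-146a-/- (25.5 to 31.5%) and 30.7% in WT (29.5 to 32%). For Igh they made 3.95% in miR-146a-/- (3.39 to 4.58%) and 8.46% in WT (8.02 to 8.91%). J and D features are very short and read length is unknown, so their levels per length are not set beside those of V or constant genes.

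Many V members had counts in 1 library only. Their choice on summed counts favours such segments: 26 of the 34 had 20 or more counts in WT only, 4 in miR-146a-/- only and 4 in both. Of the 34 V members, 16 had counts in both libraries, 14 had 0 counts in miR-146a-/- and 4 had 0 counts in WT. The 14 held 1825 WT counts, 58.2% of WT V counts. The 4 held 165 miR-146a-/- counts, 38.1% of the V counts of that library. The 5 leading V segments of one library shared 0 with the 5 leading segments of the other, and the 10 leading segments shared 2 of 10. By the counting rule 5 V members were higher, 21 lower and 8 neither, where 5.35% of all measured genes were higher and 1.53% lower. Since the rule used these counts, this is a description and supports no difference. Without the rule, 23 of the 68 V rows with any count had counts in both libraries. Of all genes, 20304 had a count in either library, 18309 in miR-146a-/- and 19383 in WT. Most of those genes, 13880, had 20 or more summed counts. The overlap of other genes at counts as low as those of V rows was not computed, so dropout at low counts was not set apart.

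Among heavy chain V segments, Ighv1-76 dominated the WT library and was not detected in the other. It had 0 counts in miR-146a-/- and 392 in WT (8.41 CPM), at least 46.9-fold lower against the floor, with an interval bound of 37.9-fold. Its neighbour Ighv1-77 had 25 counts in miR-146a-/- (1.5 CPM) and 176 in WT (3.78 CPM), lower at -1.33 (-2.0 to -0.73). Ighv1-76 and Ighv1-77 are 94.6% identical, and 18.8% of the words of 50 bases of Ighv1-76 and 37.3% of those of Ighv1-77 occur in another gene, so some reads of this pair could be shared. The reverse pattern was that of Ighv1-55 and Ighv1-26. Ighv1-55 had 57 counts in miR-146a-/- (3.41 CPM) and 61 in WT (1.31 CPM), higher at 1.37 (0.83 to 1.93), a call that ended with total count scaling (0.56). Ighv1-26 had 48 counts in miR-146a-/- and 0 in WT, at least 44.6-fold higher against the floor, and 49.0% of its words occur in other genes.

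The other leading heavy chain V segments were all lower in counts in miR-146a-/-. Ighv1-81 had 3 counts in miR-146a-/- and 89 in WT, lower at -3.30 (-5.72 to -1.82). Ighv1-74 had 11 and 85 counts, at -1.45 (-2.53 to -0.56), and Ighv7-1 had 13 and 67, at -0.87 (-1.87 to -0.02), neither called. Ighv9-1, Ighv7-3 and Ighv6-6 had 0 counts in miR-146a-/-, against 82, 80 and 50 in WT, and were at least 9.81-fold, 9.57-fold and 5.98-fold lower against the floor. In position, Ighv1-76 and Ighv1-77 lie 2418 and 2432 kb from Ighj1, in the distal part of the locus. V members over 1000 kb from Ighj1 held 86.0% of Igh V counts in miR-146a-/- (79.8 to 90.8%) and 72.9% in WT (70.3 to 75.3%).

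Kappa V segments split in the same way. Igkv10-96, the V segment with the most counts of all, had 0 counts in miR-146a-/- and 575 in WT (12.3 CPM), at least 68.8-fold lower against the floor, with an interval bound of 55.7-fold. Its closest relative, Igkv10-94, is 95.4% identical and had 0 counts in both libraries. Of the words of Igkv10-96, 32.6% occur in other genes, so its count is uncertain too. Igkv4-59 had 1 count in miR-146a-/- and 194 in WT, lower at -5.79 (-11.43 to -3.63), but 74.3% of its words occur in other genes, so its count is uncertain. Igkv14-100 had 0 counts in miR-146a-/- and 127 in WT, at least 15.2-fold lower, and Igkv6-15 had 0 and 117, at least 14.0-fold lower. Igkv10-96, Igkv14-100 and Igkv6-15 were thus seen in WT alone. Igkv3-12, Igkv1-117, Igkv1-88 and Igkv2-112 likewise had 0 counts in miR-146a-/-, against 87, 83, 66 and 52 in WT, at least 10.4-fold, 9.92-fold, 7.89-fold and 6.22-fold lower. Of the words of Igkv3-12 and Igkv1-117, 58.4% and 49.9% occur in other genes.

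In the other direction, Igkv1-135 had 57 counts in miR-146a-/- (3.41 CPM) and 0 in WT, at least 53.0-fold higher against the floor, with an interval bound of 41.7-fold. Of the words of Igkv1-135, 36.5% occur in other genes, as do 38.0% of those of Ighv1-55, so counts of both leading segments of this library are uncertain. Igkv1-122 had 35 and 0 counts, at least 32.5-fold higher, and Igkv14-130 had 25 and 0 counts, at least 23.2-fold higher. Relatives of these segments were seen in the WT library: Igkv1-117, 93.0% identical to Igkv1-122, and Igkv14-126, 82.4% identical to Igkv14-130, with 9 counts in miR-146a-/- and 87 in WT. The family Igkv1 as a sum was not called, with 92 counts in miR-146a-/- and 149 in WT at 0.78 (0.39 to 1.17), although each of its 4 members was at 0 in 1 library. A few kappa segments were shared. Igkv15-103 had 44 counts in miR-146a-/- (2.63 CPM) and 125 in WT (2.68 CPM), at -0.03 (-0.56 to 0.48). Igkv12-89 had 49 counts in miR-146a-/- (2.93 CPM) and 79 in WT (1.70 CPM), at 0.78 (0.25 to 1.32), not called. None of the words of these 2 segments occurs in another gene.

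The kappa locus holds V segments in both orientations, which join by deletion when they lie on the strand of the J segments and by inversion when they lie on the other. Segments on the strand of J held 66.9% of Igk V counts in miR-146a-/- (60.8 to 72.7%) and 35.3% in WT (33 to 37.6%). This rested on the leading segment of each library, Igkv1-135 on the J strand and Igkv10-96 on the other. Without them, a comparison chosen after the data were seen, the shares were 57.4% in miR-146a-/- (50.1 to 64.4%) and 53.2% in WT (50.2 to 56.1%), with overlapping intervals. Lambda had 2 V members. Iglv1 had 8 counts in miR-146a-/- and 131 in WT, lower at -2.52 (-3.80 to -1.53), and Iglv2 had 0 and 25, at least 2.99-fold lower. Iglv1 and Iglv2 are 96.9% identical and could share reads, and 2010309G21Rik overlaps Iglv1 on the opposite strand.

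**Figure D3:**
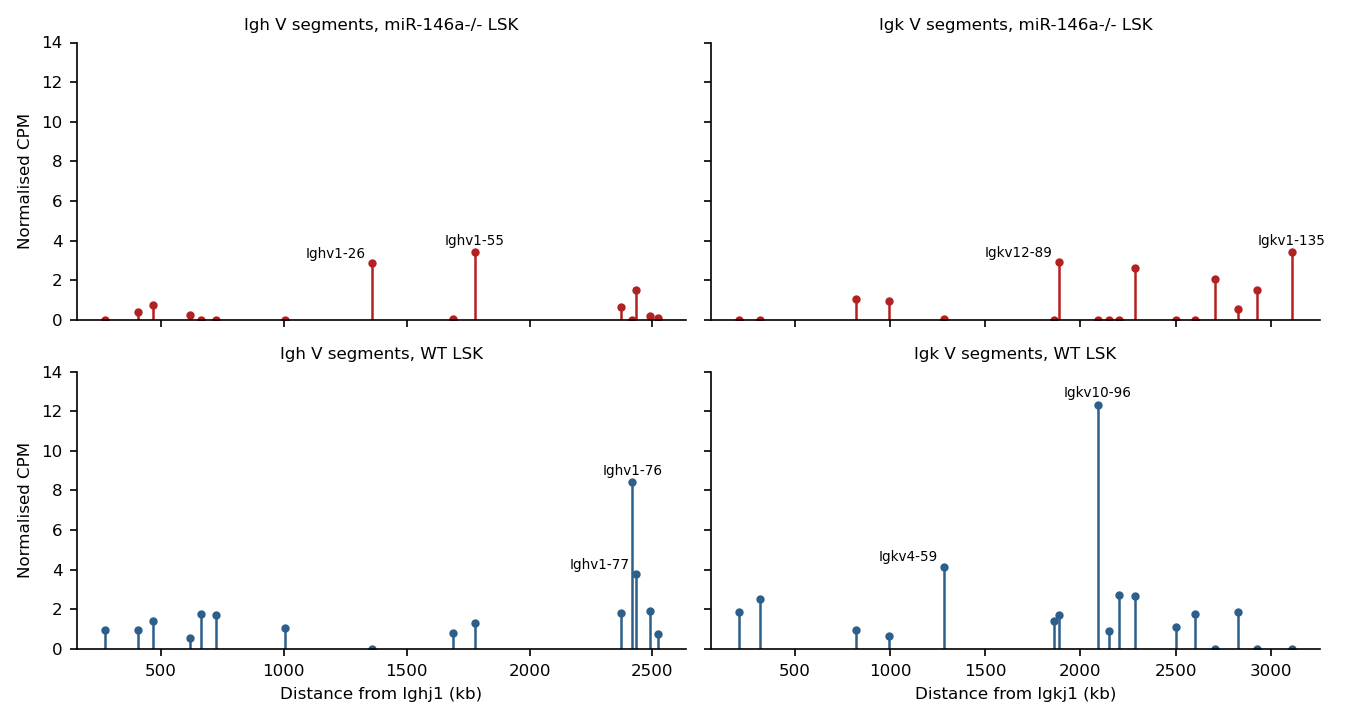
Normalised counts (CPM) of V members against distance from Ighj1 or Igkj1 in kilobases, with the miR-146a-/- library in the upper row and the WT library in the lower row (1 library each), and the 2 leading segments of each panel named. The tallest WT lines, Ighv1-76 at 8.41 CPM and Igkv10-96 at 12.3 CPM, have no counterpart in miR-146a-/-, where no V segment exceeds 3.41 CPM.

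Few segments carried the V counts in either library. In miR-146a-/- the 5 leading V members (Igkv1-135, Ighv1-55, Igkv12-89, Ighv1-26 and Igkv15-103) held 58.9% of the V counts of the members (54.1 to 63.6%). In WT the 5 leading V members (Igkv10-96, Ighv1-76, Igkv4-59, Ighv1-77 and Iglv1) held 46.8% (45.0 to 48.5%). The leading segment alone held 13.2% in miR-146a-/- (10.1 to 16.7%) and 18.3% in WT (17.0 to 19.7%). To reach 90% of the V counts took 12 segments in miR-146a-/- and 22 in WT.

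The size of that gap depended on the rule of 20 summed counts, which left out more of the V counts of the shallower library. V members held 84.6% of all V counts in miR-146a-/- and 97.0% in WT. Over all 204 V rows the 5 leading segments held 49.8% in miR-146a-/- (45.4 to 54.2%) and 45.4% in WT (43.7 to 47.1%), with overlapping intervals. Further down the ranks a gap remained: the 10 leading V rows held 73.0% in miR-146a-/- (69.0 to 76.8%) and 62.2% in WT (60.5 to 63.9%). The first V row alone held less in miR-146a-/- (11.1%, 8.54 to 14.2%) than in WT (17.8%, 16.5 to 19.1%). The ranks were taken within each library and not corrected for depth. The inverse Simpson number, the count of equally used segments that would give the same evenness, was 15.1 in miR-146a-/- and 14.9 in WT over all V rows, against 11.2 and 14.0 over the members. V rows with at least 1 count numbered 40 in miR-146a-/- and 51 in WT, where 38.8 are expected from WT at the 512 V counts of the miR-146a-/- library. Of the 68 V rows with a count in either library, 23 had counts in both, 57.5% of those in miR-146a-/- and 45.1% of those in WT. No overlap of other genes at such low counts was computed to set beside it. Over all V rows, the leading V segments had different names in the libraries, while the order of the libraries in how concentrated the counts were depended on the rank at which it was read.

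**Figure D4:**
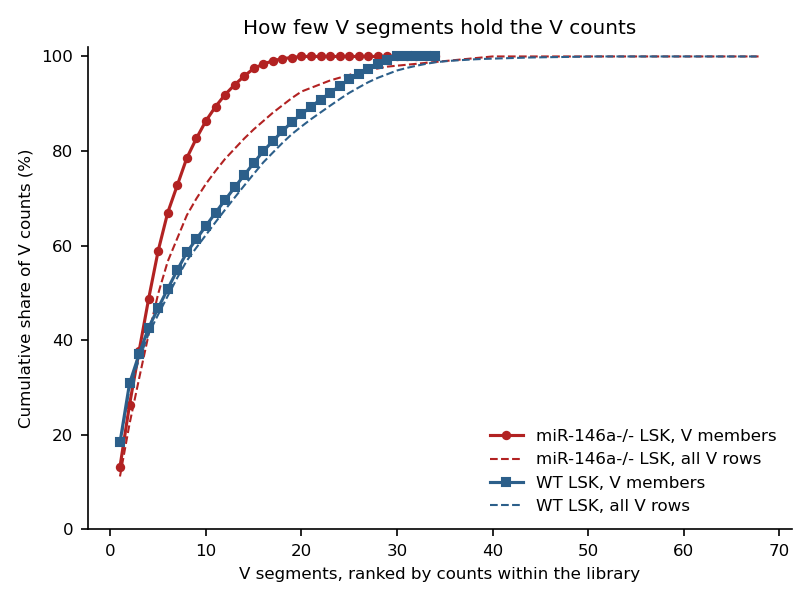
Cumulative share of V counts against V segments ranked within each library, for the 34 V members (solid lines with symbols) and for all V rows with a count (dashed lines), in miR-146a-/- (red) and WT (blue). The solid lines lie at 13.2% in miR-146a-/- and 18.3% in WT after 1 segment, and at 58.9% and 46.8% after 5. After 10 segments they lie at 86.37% and 64.15%. The dashed lines are closer together there, at 73.0% and 62.2% after 10 rows.

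Genes that act on the immunoglobulin loci were mostly close between the libraries. Of 14 measured genes of V(D)J recombination and end joining, 0 were called in either direction, and their median log2 ratio was -0.11. Over all measured genes 5.35% were called higher and 1.53% lower, so 0 calls in a short list is near that share. Scaled by total counts, 9 of the 14 were lower and the median was -0.93. By that scaling 51.0% of all measured genes were lower, with a median of -0.83. Dntt, the polymerase that adds bases at joins and is active in lymphoid-primed progenitors, had 3851 counts in miR-146a-/- (230 CPM) and 12237 in WT (263 CPM), at -0.19 (-0.24 to -0.14). Hmgb2, a cofactor of RAG, was at 212 CPM in miR-146a-/- and 198 CPM in WT, at 0.10. The recombinase genes themselves were low: Rag1 had 32 and 84 counts (0.09) and Rag2 had 46 and 156 (-0.28). Of 13 measured genes of pre-B and B cell receptor signalling 0 were called, with a median of -0.05; the most abundant were Plcg2 (350 CPM in miR-146a-/- and 376 CPM in WT, -0.10) and the kinase Syk (243 and 233 CPM, 0.06). Igll1, part of the surrogate light chain of pre-B cells, had 0 counts in both libraries.

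Of 11 measured B lineage transcription factors 2 were higher and 0 lower (median 0.33). The shares over all measured genes were 5.35% higher and 1.53% lower. Bach2, a repressor that restrains plasma cell differentiation, had 660 counts in miR-146a-/- and 1018 in WT and was higher at 0.85 (0.71 to 1.0). Id3, an inhibitor of E proteins, had 68 and 86 counts and was higher at 1.13 (0.66 to 1.62). Scaled by total counts, neither was called, with Bach2 at 0.03 and Id3 at 0.32. The abundant Ikzf1 (479 CPM in miR-146a-/- and 388 CPM in WT) and Bcl11a (304 and 267 CPM) were at 0.30 and 0.19. Of 6 measured genes of switching and mutation, 1 was lower and 0 higher (median -0.51). Ung, the uracil glycosylase used in switching and in base repair of any dividing cell, was lower at -0.75 (-0.92 to -0.59), while Apobec3 and Msh6 were at 0.12 and -0.49.

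Markers of cells that could carry joined genes are given beside the V results, and their part in them was not tested. For each list, the shares over all measured genes were 5.35% higher and 1.53% lower. Of 10 measured plasma cell markers 1 was lower and 0 higher, with a median of -0.09. The plasma cell list summed to 228 CPM in miR-146a-/- and 249 CPM in WT. Jchain, which links IgA and IgM into polymers, had 38 counts in miR-146a-/- and 271 in WT and was lower at -1.35 (-1.89 to -0.86). The abundant members Txndc5 (50.1 CPM in miR-146a-/- and 76.2 CPM in WT) and Xbp1 (70.9 and 66.0 CPM) were at -0.61 and 0.10. Of the other measured markers, Irf4, Prdm1 and Sdc1 were at 0.95, 0.43 and 0.26. Derl3, Fkbp11, Edem1 and Tnfrsf13b were at -0.74, -0.58, -0.15 and -0.03, and none of these was called. The receptor Tnfrsf17 had 0 counts in miR-146a-/- and 5 in WT, too few to be measured. Of 6 measured B cell markers 1 was higher and 0 lower, at a summed 350 CPM in miR-146a-/- and 245 CPM in WT. That sum was nearly all Cd24a, a surface protein shared with many progenitors (331 and 227 CPM, 0.54), with Cd79b at -0.05. The higher gene, Fcer2a (CD23), had 27 and 18 counts, at 2.02 (1.15 to 3.01), and at 1.22 and not called when scaled by total counts. Of 5 measured pro-B and pre-B cell markers 0 were called (709 CPM in miR-146a-/- and 654 CPM in WT), most of it Cd93 (0.30) and Dntt.

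**Figure D5:**
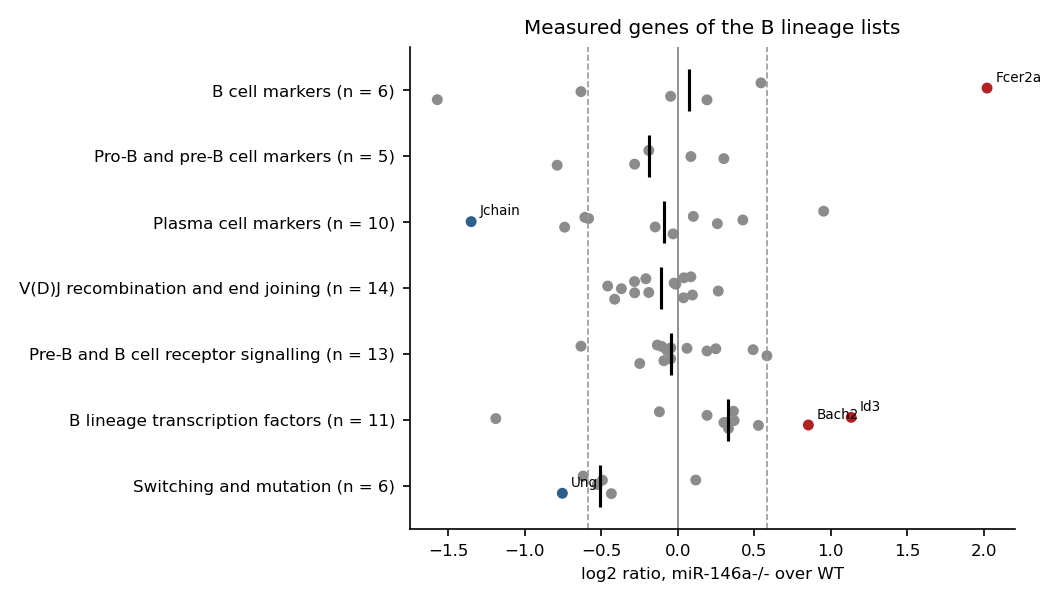
Log2 ratio of miR-146a-/- over WT for each measured gene of 7 B lineage lists, with called genes in red (higher) or blue (lower) and named, list medians as black bars and dashed lines at 1.5-fold. Jchain and Ung are the blue points and Fcer2a, Bach2 and Id3 the red ones, and the list medians lie between -0.51 and 0.33. By total counts the 3 red genes were not called.

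Markers of other mature cells in marrow moved in different directions, and their part in the V results was not tested. Here too the shares over all measured genes were 5.35% higher and 1.53% lower. Of 6 measured neutrophil markers, 3 were lower and 0 higher, with a summed 5.92 CPM in miR-146a-/- and 13.9 CPM in WT. The granule protein genes Ltf (6 and 121 counts, -2.80) and Ngp (29 and 211 counts, -1.38) were lower, as was S100a9 (23 and 152 counts, -1.24). S100a8 (19 and 43 counts) went the other way, at 0.30 (-0.56 to 1.11), and was not called. Camp (4 and 38 counts) and Lcn2 (13 and 73 counts) had negative ratios but were not called. T cell genes Cd3e, Cd3d, Cd3g and Cd8a had 0 counts in both libraries, and Cd4 (68 and 86 counts) was higher at 1.13 (0.32 and not called by total counts), with Cd5 at -0.04. T cell receptor segments gave 4 measured genes of 209, of which 0 were called, with a median of 0.69, led by Trbv13-2 (19 and 36 counts) and Trbv1 (18 and 36 counts). Of 6 monocyte and macrophage markers 1, F13a1 (1.46), was higher (0.64 and not called by total counts), with Lyz2 at -0.29 and Itgam at 0.66. Of 6 measured dendritic cell markers 0 were called, with Runx2 at 0.62 and Tcf4 at 0.49. Of 8 stem and progenitor markers 0 were called, with Kit at 0.38 and Cd34 at -0.19. All 13 immunoglobulin pseudogene rows had 0 counts in both libraries.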

How the data were processed

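The authors deposited whole-number counts per Ensembl gene, not normalised, for 1 library per genotype. Per the file headers, junction reads were placed on the genome and duplicates flagged. Tools named in the submitters' processing notes are STAR 2.5.3a and Salmon 0.9.0, with the mm10 build. The sources used here do not give the counting program, strand use, read length, or handling of duplicates and of reads that match several genes, so counts of similar V segments, zeros included, may be shared out in unknown ways. Names and gene types came from GENCODE M21 (37693 of 39017 identifiers matched). For the 13880 genes with 20 or more summed counts, edgeR 4.0.16 under R 4.3.3 gave TMM library sizes. With no replicates the quasi-likelihood test could not be run. Log2 ratios used a prior count of 0.5. Intervals (95%) are exact Clopper-Pearson intervals from SciPy 1.17.1. Like the floor of 3 counts, they cover counting error only: with no molecular identifiers, reads may repeat 1 molecule. Ratio code was tested on simulated data. Words of 50 bases were sought in all M21 transcripts, with read length unknown.

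Named genes were all constant, J and D members, the 5 leading Igh and Igk V members per library, Igl V members, the 5 highest and 5 lowest by interval bound, V members with at least 50 counts against 0, and in each of 12 lists the 2 most abundant and up to 2 called each way. Other genes were named after their values were seen. Members and lists were chosen with earlier results of these data known. Alternatives were scaling by DESeq2 1.42.0, by upper quartile or by total counts, other filters, a 2-fold threshold, thinning and removal of leading genes.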

Additional observations from a re-analysis of the deposited data

How the results depend on the processing

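DESeq2 and upper-quartile scaling left each count of members and each sum within the counting interval of the reported value or within 1.5 times the reported count. The sums called lower (Igk, Igl and V) kept their sign under each of their alternatives. The rest of the 45 alternative values were counts, shares or sums not called, for which a change of sign was not scored. Total counts gave sums of -1.13 (Igh), -1.98 (Igk), -2.20 (V), -1.06 (J) and -1.22 (constant), following the shift in all genes; members called were then 5 higher and 31 lower, where 1.01% and 51.0% of all genes were called. With no filter, 12 immunoglobulin rows with any count were higher and 28 lower, where 3.64% and 1.59% of all genes with a count were. By that setting the Igh and constant sums were -0.36 and -0.47, and the 5 leading V segments of miR-146a-/- held 49.8%. With at least 200 counts, 0 members were higher and 4 lower (4.58% and 1.21% of all genes), since few members are that abundant; no p-value exists for these counts. Without Ighm the Igh sum was -0.67, and without Igkc the Igk sum was -1.27. Among members with at most 33% of their words shared with other genes, a setting chosen after seeing the data, 3 were higher and 21 lower and the V sum was -1.90. That cut just kept Igkv10-96 (32.6%), and it left out Igkv1-135 (36.5%), Ighv1-55 (38.0%) and Igkv4-59 (74.3%). A 2-fold threshold gave 5 higher and 22 lower. Also chosen after seeing the data, total counts ended the call of each list gene called higher (Fcer2a, Cd4, F13a1, Bach2 and Id3) and kept that of each called lower (Jchain, Ltf, Ngp, S100a9 and Ung). No paired analysis was possible because each genotype has 1 library and no test was made. A V segment with 0 counts in miR-146a-/- may be absent or present at a level expected to give up to about 3 counts, and these cannot be told apart.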
